A study of Mus musculus with 106 samples.

Results

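Total RNA of the cerebellum is set against total RNA of the cerebrum in control mice, in 13 of the 106 libraries of the series. These 13 were chosen by their labels as control genotype, input preparation and either the Gad2 or the vGlut2 Cre line, the lines sampled in both regions. There are 7 cerebellar libraries (3 of the Gad2 line, 4 of the vGlut2 line) and 6 cerebral libraries (3 of each line). The mice are Hdh Q7/Q7 controls of a Huntington's disease series on a 129S4 background, 9 months old, heterozygous for a Cre allele at Gad2 or vGlut2 and for RiboTag, an HA tag on the ribosomal protein Rpl22 that Cre switches on. Input RNA comes from homogenized flash frozen hemispheres, taken from the supernatant of a spin that clears the homogenate and before any pull-down, so the Cre line marks the mouse and does not select cells. Cerebrum here means brain without cerebellum and olfactory bulb, and libraries are stranded and made from poly(A) RNA. The 13 libraries come from 9 mice, of which 4 gave both regions.

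The cerebellum is a sheet of small granule cells, which send glutamate to the large inhibitory Purkinje cells through parallel fibres, with a few kinds of interneuron and a specialised astrocyte, the Bergmann glia, around them. What is called cerebrum here joins cortex, hippocampus, striatum, thalamus and hypothalamus, and, by its definition, whatever brainstem stays attached. A difference in total RNA between the regions therefore reads both which cells are there and what RNA of each cell stays in the cleared supernatant. In bulk RNA, fewer cells of a type and less RNA per cell cannot be told apart, and this holds for each result that follows.

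Depth was alike in the regions: 30447351 to 46263019 counts on mouse genes in the cerebellum (median 35858945) and 28504336 to 49987799 in the cerebrum (median 35849508.5). Levels are CPM after TMM scaling and log2 fold changes are cerebellum minus cerebrum, so positive values are higher in the cerebellum. On the 500 most variable protein-coding genes the first principal component held 93.5% of the variance and the second 3.32%. Each of the 13 libraries lay nearest to its own region, with a lowest correlation within a region of 0.867 and a highest between regions of 0.226. On the 2000 most variable genes these were 0.807 and 0.654, a narrower gap. The labelled regions also match their markers: Gabra6, the granule cell GABA-A subunit, ran at 322 to 673 CPM (median 508) in the cerebellum, and Tbr1, a transcription factor of cortical neurons, at 59.7 to 100.2 CPM (median 89.6) in the cerebrum with at most 0.487 in a cerebellar library.

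By markers or by spread, 3 libraries stood apart from the others of their region, and they were chosen after their values were seen. Gad2-line cerebral replicate 2 held cerebellar markers: Gabra6 at 11.9 CPM, Cbln3 at 54.7, Pcp2 at 18.1 and Fat2 at 15.3, against median values of 0.410, 2.31, 0.505 and 1.77 over the 6 cerebral libraries. The vGlut2-line cerebellar replicate 4 held thalamic, midbrain and forebrain markers: Slc17a6, the vesicular glutamate transporter of the brainstem and thalamus, at 68 CPM (cerebellar median 11.6), the thalamic factor Tcf7l2 at 66.8 (median 6.49) and the pyramidal neuron gene Nrgn at 91 (median 6.45). Gad2-line cerebral replicate 1 was the highest of the 6 cerebral libraries in 37.1% of tested genes and the lowest in 42.1%, where an even spread would give 16.7%. It also had the highest Slc17a6 (131 CPM) and mitochondrial share (7.52%) of the cerebral libraries. The vGlut2-line cerebral replicate 1 came next in spread, highest in 29.4% and lowest in 25.7%, and was not counted among the 3. Without it 3561 genes were called higher in the cerebrum, against 4353 with it. The cause was not tested, and all 3 libraries stay in the comparison, with values without them beside the results that rest on them. The label cerebrum, by its definition, can take in more than forebrain. The cerebral libraries also hold Hox genes, which mark hindbrain and spinal cord, at a summed level of 24 to 58.7 (median 41.6) CPM. Which tissue those reads come from was not tested.

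**Figure D1:**
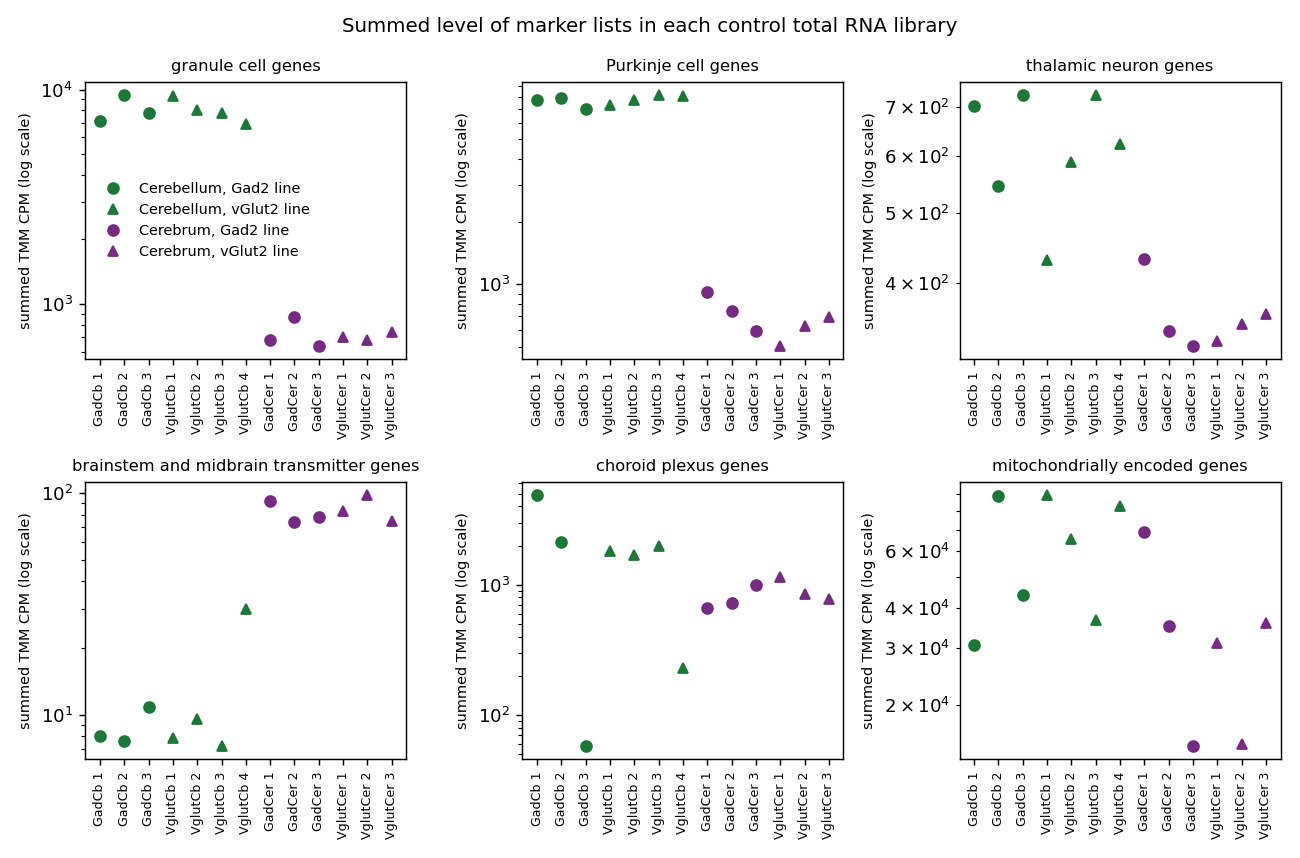
Summed TMM CPM of 6 gene lists in each of the 13 libraries on a log axis, 1 point per library, with cerebellum and cerebrum in separate colours and circles for the Gad2 line, triangles for the vGlut2 line. Granule cell genes sum to 6913 CPM or more in each cerebellar library and to 870.1 or less in each cerebral one.

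Most genes of the adult brain are used in both regions, so a test of any difference calls many genes whose change is small, and a test against a minimum fold separates those from the marked ones. Of 14901 protein-coding genes put to the quasi-likelihood F test of edgeR (p adjusted by Benjamini-Hochberg, called at 0.05), 8665 differed (58.2%): 4312 were higher in the cerebellum (28.9%) and 4353 in the cerebrum (29.2%). For 4210 genes (28.3%) the values of the 7 cerebellar libraries did not overlap those of the 6 cerebral ones. Beyond 2-fold, 809 genes were higher in the cerebellum (5.43%) and 1349 in the cerebrum (9.05%). Near-even totals thus hide an imbalance, in that marked differences were more often higher in the cerebrum. That imbalance rests on 1 library: without Gad2-line cerebral replicate 1 the count higher in the cerebellum beyond 2-fold was 1617 against 1461 in the cerebrum, and within the 4 mice that gave both regions (8 libraries, mouse as a block) 1849 against 1380. The median log2 fold change over all tested genes was 0.02, the value to set beside each list below. The counts of each list are likewise to be set beside the shares over all tested genes, 28.9% and 29.2%. Counts near those shares do not set a list apart. Over the 35 lists of cell types and gene families, 386 of 432 genes were tested, 121 higher in the cerebellum and 179 in the cerebrum.

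Toward the cerebellum, genes were ranked by fold among called genes without overlap and with a mean of at least 10 CPM. The leading 12 were Nrk, Sycp1, Gabra6, Cbln3, Bcl2l15, Fat2, Crtam, Pcp2, Cnpy1, Arhgef33, B3gnt5 and Il22. In RiboTag pull-downs of the same series, given as description, several of them part by cell class. Nrk, a protein kinase, averaged 144 CPM in Gad2-line cerebellar pull-downs, which hold Purkinje cells and inhibitory interneurons, and 4.64 in vGlut2-line ones. Sycp1, known for the synaptonemal complex of meiosis, had 48.5 and 1.31, and the cytokine gene Il22 52.2 and 0.985. Some mouse strains carry a near-identical copy of Il22, so the origin of its reads is uncertain. Bcl2l15, of the BCL2 family, went the other way with 4.66 and 82.4, as did the immunoglobulin family gene Crtam with 38.9 and 269. DESeq2 gave no adjusted p for Cbln3, Fat2, Crtam and Pcp2, which are thus not called by it.

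In total RNA, Nrk ran at 22 to 53.4 CPM (median 48.5) in the cerebellum and 0 to 0.123 (median 0.0151) in the cerebrum (log2 fold change 10.13, SE 0.55, adjusted p 7.4e-09). Il22 ran at 11.6 to 21 (median 13.5) and 0.0356 to 0.270 (median 0.153), log2 fold change 6.46 (SE 0.32, adjusted p 3.5e-09). With few cerebral counts, Nrk and Il22 pass the count filter by their cerebellar level, so the filter favours that direction for them. Size depends on the cerebral library that holds cerebellar markers: without Gad2-line cerebral replicate 2, Nrk rose to 11.45, Sycp1 from 9.20 to 11.92, Bcl2l15 from 7.75 to 9.31, Crtam from 7.55 to 9.05 and Cnpy1 from 6.76 to 8.22. The values with all 13 libraries thus lie below the contrast seen in the other 12.

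Among the leading 12 toward the cerebrum were Avp, Fezf2, Gm11549, Ddn, Crym, Icam5, Pmch, Oxt, Emx1 and Slc6a3. They name forebrain patterning (Fezf2, Emx1), hypothalamic hormones (Avp for vasopressin, Oxt for oxytocin, Pmch for melanin-concentrating hormone), dendrites of forebrain neurons (Ddn, Icam5) and the dopamine transporter of midbrain neurons (Slc6a3). Crym, which codes for a thyroid hormone binding protein, ran at 0.0244 to 0.372 CPM (median 0.0885) in the cerebellum and 79 to 137 (median 117) in the cerebrum (log2 fold change −9.47, SE 0.43, adjusted p 2e-09). Icam5, an adhesion molecule of telencephalic dendrites, ran at 0.113 to 1.11 (median 0.235) and 142 to 309 (median 254), log2 −9.30 (SE 0.48, adjusted p 5.2e-09). Slc6a3 ran at 0.0225 to 0.200 (median 0.0664) and 17.9 to 26.5 (median 24), log2 −8.12 (SE 0.31, adjusted p 5.4e-10). With few cerebellar counts, Crym and Slc6a3 pass the count filter by their cerebral level, so the filter favours that direction for them. Where the cerebellum has next to no counts the fitted fold means little: Avp had 1 count over the 7 cerebellar libraries against 5497 over the 6 cerebral ones, a ratio of 6451 with a 95% counting interval of 1157 to 254852, and Fezf2 had 2 against 5214, a ratio of 3059.5 (847 to 25270.0).

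**Figure D2:**
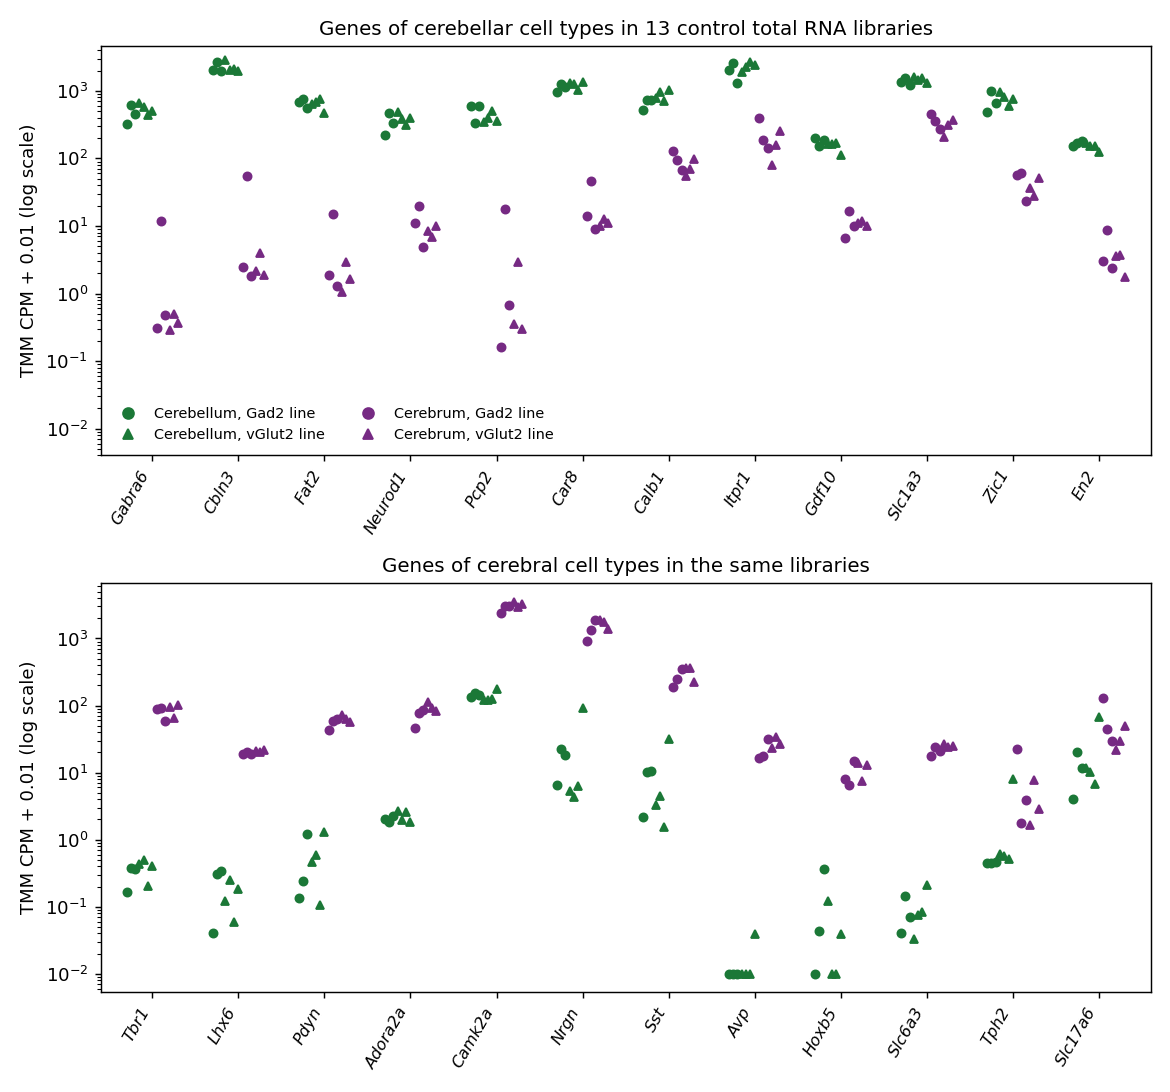
TMM CPM of 24 genes in each of the 13 libraries on a log axis, 1 point per library, circles for the Gad2 line and triangles for the vGlut2 line; the upper panel has genes of cerebellar cell types, the lower panel genes of cerebral ones. Neurod1 sits between 220.2 and 483 CPM in the cerebellum and at 19.7 or less in the cerebrum.

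Granule cells are the most numerous neurons of the brain and carry a compact set of marker genes, from the Zic factors of their birth to the receptor subunits of their few dendrites. All 16 granule cell genes were called higher in the cerebellum, at a median of 3.26 on the log2 scale. Their summed level was 6913 to 9439 (median 7798) CPM in the cerebellum and 634 to 870.1 (median 691) in the cerebrum. Gabra6, which codes for a subunit of the synaptic and tonic GABA-A receptors of these cells (GRCm38 chr11:42306437-42321072), ran at 322 to 673 (median 508) and 0.275 to 11.9 (median 0.410), log2 fold change 8.39 (SE 1.07, adjusted p 2.1e-05). Cbln3, a cerebellin that is held in the cell until it pairs with Cbln1 (GRCm38 chr14:55878913-55884392), ran at 1992 to 2837 (median 2037) and 1.83 to 54.7 (median 2.31), log2 8.28 (SE 1.03, adjusted p 1.6e-05), and Fat2, a giant cadherin of parallel fibres, at 467 to 769 (median 685) and 1.06 to 15.3 (median 1.77), log2 7.59 (SE 0.69, adjusted p 9.6e-07). The regions did not overlap for any of these genes, and DESeq2 gave no adjusted p for Cbln3 and Fat2. Without Gad2-line cerebral replicate 2 the values of the 3 were 10.41, 9.84 and 8.54. Per kilobase of transcript, the most abundant member was Cbln3 in the cerebellum (460.1 CPM per kb) and Gabrd, the extrasynaptic delta subunit, in the cerebrum (30.6).

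The list grades from granule cell specific to shared. Neurod1, a proneural factor kept on in adult granule cells, ran at 220.2 to 483 CPM (median 389.7) against 4.95 to 19.7 (median 9.30), log2 fold change 5.21 (adjusted p 4.4e-08), while Cntn2, an axonal adhesion molecule that oligodendrocytes also use, ran at 281 to 377 (median 355) against 182 to 242 (median 225), log2 0.64 (adjusted p 7.4e-05) and Gabrd at 129.8 to 268 (median 199) against 51.5 to 109 (median 94), log2 1.17 (adjusted p 0.00014). Cntn2 and Gabrd are the members of the list that were not beyond 2-fold, although their regions did not overlap either. In the pull-downs Gabra6 averaged 1182 CPM in the vGlut2 line and 132 in the Gad2 line of the cerebellum, so granule cell RNA is found in both and is richer in the first.

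Purkinje cells are the sole output of the cerebellar cortex, few in number and very large, with a calcium store machinery unlike that of other neurons. Of 18 Purkinje cell genes 17 were called higher in the cerebellum and 1 was not called, with a median of 3.31 and sums of 7025 to 8184 (median 7737) CPM and 501 to 919 (median 661). Pcp2, a G protein modulator, ran at 339 to 604 (median 398) in the cerebellum and 0.151 to 18.1 (median 0.505) in the cerebrum (log2 fold change 7.33, SE 1.07, adjusted p 6.9e-05), and without Gad2-line cerebral replicate 2 it was 9.02. Car8, which damps the inositol trisphosphate receptor, ran at 948 to 1364 (median 1244) and 9.08 to 46.2 (median 11.8), log2 6.22 (SE 0.43, adjusted p 6.3e-08), and that receptor's gene Itpr1 at 1327 to 2669 (median 2277) and 79.3 to 403 (median 171), log2 3.44 (SE 0.34, adjusted p 2.2e-06). Neither Car8 nor Itpr1 overlapped between regions. Ppp1r17, a phosphatase inhibitor, had a log2 fold change of 6.45 (7.13 without the same replicate). Pvalb was the most abundant member per length in both regions (1000.4 and 153.73 CPM per kb). The member without a call was Foxp2, a transcription factor that Purkinje cells share with striatum, thalamus and deep cortex, at 3.29 to 20.9 (median 9.31) against 3.12 to 24.6 (median 6.81), log2 −0.08 (adjusted p 0.907). Within the 4 mice with both regions its sign turned to 0.61 (adjusted p 0.00945).

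The remaining cerebellar neurons are inhibitory interneurons (basket, stellate and Golgi cells) and the excitatory unipolar brush cells. Of 13 such genes 9 were higher in the cerebellum and 4 not called (median 1.23). They summed to 760.4 to 1198 (median 997) CPM and 342 to 719 (median 416). Tfap2b, a transcription factor of the inhibitory lineage, ran at 49.9 to 71.8 (median 59.7) and 1.83 to 4.94 (median 2.96), log2 fold change 4.28 (SE 0.25, adjusted p 1.5e-08) and Kit, the receptor by which stellate and basket cells reach Purkinje cells, at 174 to 236 (median 198) and 32.8 to 46.9 (median 40.3), log2 2.32 (SE 0.12, adjusted p 4.2e-09). Eomes, in the adult cerebellum a mark of unipolar brush cells, ran at 7.76 to 13.6 (median 11.1) and 0.148 to 1.77 (median 0.695), log2 3.85 (SE 0.39, adjusted p 2.6e-06). Regions did not overlap for these 3 genes. Sorcs3, Gjd2, Grik3 and Slc6a5 were not called, and Slc6a5, the glycine transporter of Golgi cells and of brainstem neurons, ran at 23 to 41.6 (median 29.4) and 18.3 to 42.4 (median 24.2), with overlapping regions. Gjd2 was called when any of these libraries was left out: Gad2-line cerebellar replicate 3 (0.41), Gad2-line cerebral replicate 1 (0.45) or vGlut2-line cerebellar replicate 3 (0.42, against 0.37 with all 13). Per kilobase the most abundant member was the potassium channel gene Kcna2 in the cerebellum (27.2 CPM per kb) and Lgi2 in the cerebrum (14.3).

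Bergmann glia are the astrocytes whose fibres span the Purkinje cell layer and clear its glutamate. All 8 Bergmann glia genes were higher in the cerebellum, with a median of 2.27 and sums of 2382 to 2995 (median 2760.1) CPM and 677 to 797 (median 748). Dao, which breaks down D-serine, ran at 57.6 to 109 (median 70.2) and 2.20 to 6.76 (median 3.86), log2 fold change 4.32 (SE 0.26, adjusted p 2.1e-08), Gdf10, a secreted growth factor, at 111 to 203 (median 165) and 6.62 to 16.5 (median 10.6), log2 3.91 (SE 0.21, adjusted p 7.1e-09), and Slc1a3, the glutamate transporter GLAST and the most abundant member per length in the cerebellum (168 CPM per kb), at 1231 to 1601 (median 1424) and 210.1 to 449 (median 332), log2 2.14 (adjusted p 1.4e-07). None of these overlapped between regions; Fabp7 did, with 31.2 at its lowest in the cerebellum and 33.4 at its highest in the cerebrum. In the cerebrum Sept4 was the most abundant per length (81.2 CPM per kb).

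General astrocyte genes did not share that direction. Of 12, 4 were higher in the cerebellum, 5 in the cerebrum and 3 not called (median −0.26), where the shares over all tested genes were 28.9% and 29.2%. The sums were near each other at 6723 to 7995 (median 7433) CPM and 7132 to 8562 (median 7818). Aqp4, the water channel of astrocyte endfeet, ran at 158 to 376 (median 288) in the cerebellum and 24 to 124 (median 37.6) in the cerebrum (log2 fold change 2.36, SE 0.41, adjusted p 0.00032), and the calcium binding S100b at 468 to 616 (median 541) and 188 to 262 (median 239), log2 1.26 (SE 0.11, adjusted p 5.3e-07). The reverse held for the GABA transporter Slc6a11, at 83.5 to 183 (median 105) and 396 to 525 (median 421), log2 −2.002 (SE 0.18, adjusted p 7.1e-07), and for Mfge8, which tags debris for uptake, at 70.9 to 95.5 (median 76.9) and 166 to 338 (median 273), log2 −1.70 (SE 0.15, adjusted p 6.4e-07). None of the 4 overlapped, and they differ in direction. Slc1a2, Aldh1l1 and Agt were not called, and Apoe was the most abundant member per length in both regions (754 and 1129 CPM per kb).

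Microglia and cells of the oligodendrocyte line are spread through the brain at densities that vary between regions. All 12 microglia genes were higher in the cerebrum, with a median of −1.46 and sums of 167 to 215 (median 184) CPM in the cerebellum and 370.1 to 555 (median 479.5) in the cerebrum. Trem2, a lipid sensing receptor, ran at 2.80 to 4.13 (median 3.16) and 6.93 to 14.3 (median 11.7), log2 fold change −1.73 (SE 0.18, adjusted p 2.8e-06), and Tmem119, a marker of resident microglia, at 8.81 to 12.4 (median 10.7) and 23 to 41.4 (median 33.4), log2 −1.69 (SE 0.14, adjusted p 4e-07), neither with overlap. Of 12 members, 11 had no overlap between regions. Oligodendrocyte genes leaned the same way by less: 11 of 15 were higher in the cerebrum and 4 not called (median −0.63). They summed to 4487 to 6375 (median 5359) CPM and 6088 to 7099 (median 6496). Opalin, of mature myelin, ran at 13.7 to 22.9 (median 19.1) and 33.6 to 62.1 (median 43.6), log2 −1.32 (SE 0.18, adjusted p 4e-05) and Cspg4, of precursor cells, at 6.90 to 9.90 (median 8.31) and 14.6 to 24.1 (median 21.2), log2 −1.31 (SE 0.13, adjusted p 1.6e-06). Neither of these overlapped. Among those without a call were Mobp, Ermn and Pdgfra, and the first 2 had positive values that were called when Gad2-line cerebral replicate 1 was left out (Mobp 0.32 to 0.45, Ermn 0.78 to 1.35). With all 13 libraries no oligodendrocyte gene was called higher in the cerebellum. Mbp was the most abundant per length in both regions (263 and 405 CPM per kb).

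Vessels, meninges, choroid plexus, ependyma and blood enter a homogenate as the dissection brings them, and neighbouring glands or the olfactory bulb may come along. Of 11 vascular and meningeal genes 6 were higher in the cerebellum and 5 not called (median 0.47; sums 339 to 557 (median 437) CPM and 269 to 362 (median 329.9); Igf2 the most abundant per length in both, at 46.4 and 33.3 CPM per kb). Slco1a4, an organic anion carrier of the blood-brain barrier, ran at 11.8 to 27.6 (median 19.7) and 5.10 to 16.7 (median 7.16), log2 fold change 1.28 (SE 0.33, adjusted p 0.00479), with overlap. Choroid plexus genes had 3 of 8 higher in the cerebellum and 5 not called (median 1.01), and their sum ran from 57.9 to 4916 CPM among cerebellar libraries against 664 to 1141 among cerebral ones, most of it Ttr, the thyroxine carrier (1461 and 681 CPM per kb). The cause of that spread was not tested. Otx2 alone in the list had no overlap, at 9.74 to 18.3 (median 14.2) and 3.78 to 4.65 (median 4.23), log2 1.71 (SE 0.16, adjusted p 1.5e-06). Ependymal genes had 1 of 5 higher in the cerebellum (median −0.16, sums 18.8 to 35 (median 23.6) and 17.5 to 32.1 (median 23.4)), and blood genes 0 of 5 called in edgeR's test (median 0.34, sums 237 to 1572 (median 344) and 237 to 1381 (median 401)). None of the 7 pituitary and pineal genes had counts enough to be tested, with sums of at most 0.809 and 2.92 CPM. Among 2 tested olfactory bulb genes (of 3; median −1.99) Cdhr1, a protocadherin of mitral cells, was higher in the cerebrum at 26.9 to 43.8 (median 31.4) against 0.830 to 3.09 (median 1.53), log2 −4.33 (SE 0.27, adjusted p 2.6e-08), and Doc2g was not called.

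Transcription factors that lay out the embryonic brain stay on in adult neurons and act as a record of where a cell was born. Of 18 tested cerebellar factors (of 19) 17 were higher in the cerebellum, with a median of 3.68 and sums of 1706 to 3091 (median 2375) CPM and 109 to 229.8 (median 164). En2, which with En1 sets up the midbrain and hindbrain boundary, ran at 124 to 178 (median 155) and 1.75 to 8.58 (median 3.28), log2 fold change 5.41 (SE 0.33, adjusted p 2.3e-08), Zic1 at 479 to 996 (median 746) and 23.4 to 61.8 (median 43.9), log2 4.14 (SE 0.29, adjusted p 7.9e-08) and Barhl2, a homeobox gene, at 46.5 to 62.7 (median 58.1) and 1.34 to 3.05 (median 1.83), log2 4.89 (SE 0.20, adjusted p 9.4e-10). Regions did not overlap for these. Atoh1, which makes granule cell precursors in the embryo, had 0 counts in each of the 13 libraries. En1 was not called, at 1.29 to 6.95 (median 4.03) and 1.57 to 3.75 (median 3.17), log2 0.52 (adjusted p 0.166), and was called without vGlut2-line cerebellar replicate 3 (0.67). Of these factors Neurod1 was the most abundant per length in the cerebellum (136 CPM per kb) and Zic1 in the cerebrum (7.56).

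Telencephalic factors mark the forebrain side. Of 20, 19 were higher in the cerebrum and 1, Neurod2, in the cerebellum (median −6.88, the same with the member at 0 set to its bound; sums 194 to 290.2 (median 231) CPM and 602 to 907 (median 796)). Tbr1, of deep cortical neurons, ran at 0.155 to 0.487 (median 0.369) in the cerebellum and 59.7 to 100.2 (median 89.6) in the cerebrum (log2 fold change −7.93, SE 0.26, adjusted p 2.4e-10), and Lhx6, of cortical interneurons born in the ganglionic eminence, at 0.0310 to 0.330 (median 0.172) and 18.7 to 22 (median 20.3), log2 −6.83 (SE 0.36, adjusted p 5.4e-09). Lhx8, of cholinergic neurons of the basal forebrain, had 0 cerebellar counts and was at least 229-fold higher in the cerebrum against a floor of 3 counts over the group. Dlx6 had 1 count against 1742, a ratio of 2044 (counting interval 366 to 80794). Such members enter the test by their cerebral level, so their direction follows from the count filter. Neurod2, which granule cells also make, departs from the list, at 121 to 258 (median 202) and 57.2 to 105 (median 85.8), log2 1.24 (SE 0.18, adjusted p 5.7e-05) without overlap, and it was the most abundant member per length in both regions (63.6 and 26.8 CPM per kb). Six3, at −3.88 (adjusted p 0.0124), was −6.37 (adjusted p 5.5e-05) without vGlut2-line cerebellar replicate 4.

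Diencephalic factors and thalamic genes test the parts of the cerebrum dissection that lie near the midline. Of 8 tested diencephalic factors (of 10) 5 were higher in the cerebrum and 3 not called (median −3.34, the same with the members at 0 set to their bounds). They summed to 13.7 to 110.1 (median 22.6) CPM and 49.5 to 132 (median 72.2). Nkx2-1 had 0 cerebellar counts and was at least 223-fold higher in the cerebrum against a floor of 3 counts over the group. Gbx2, of thalamic neurons, ran at 0 to 0.0899 (median 0.0572) and 2.43 to 5.35 (median 3.46), log2 fold change −6.17 (SE 0.37, adjusted p 2e-08), without overlap. Nkx2-1 and Gbx2 enter the test by their cerebral level, so their direction follows from the count filter. Tcf7l2, the most abundant per length in both regions (1.80 and 3.93 CPM per kb), Lhx9 and Rorb were not called. Without vGlut2-line cerebellar replicate 4, Tcf7l2 went from −1.27 (adjusted p 0.121) to −2.30 (adjusted p 0.000189) and Lhx9 from −0.83 to −1.99 (adjusted p 0.00189). Of 7 thalamic neuron genes 3 were higher in the cerebrum, 1 in the cerebellum and 3 not called (median −1.27). Their sums were 429.7 to 728 (median 623) CPM in the cerebellum and 327 to 432 (median 347) in the cerebrum. The gene higher in the cerebellum was Calb2, calretinin, which thalamic and granule cells share, at 329 to 609 (median 471) and 103 to 158 (median 123), log2 1.95 (SE 0.17, adjusted p 6.4e-07), and it makes up most of the summed level in the cerebellum (279 CPM per kb, and 72.3 in the cerebrum).

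Striatal projection neurons and cortical pyramidal neurons are the most abundant neurons of the cerebrum. All 12 striatal genes were higher in the cerebrum (median −4.62). They summed to 471 to 645 (median 499) CPM and 1501 to 2146 (median 1896). Pdyn, the dynorphin precursor of the direct pathway, ran at 0.0976 to 1.29 (median 0.451) and 43.4 to 71.6 (median 61), log2 fold change −6.72 (SE 0.51, adjusted p 1.7e-07), and Adora2a, the adenosine receptor of the indirect pathway, at 1.83 to 2.66 (median 2.02) and 46.8 to 114 (median 83.3), log2 −5.25 (SE 0.18, adjusted p 3.5e-10). Markers of both striatal pathways were thus far apart between regions, without overlap. Others are shared with the cerebellum: Penk, the enkephalin precursor that Golgi cells make, was the most abundant per length in both regions (95.3 and 203 CPM per kb) and had a log2 fold change of −1.09 (adjusted p 6.7e-05), and Pde10a one of −0.89 (adjusted p 0.00319), with overlap. Of 12 pyramidal genes 10 were higher in the cerebrum, Nptx1 was higher in the cerebellum and Rorb not called (median −3.49). They summed to 1544 to 1975 (median 1845) CPM and 5313 to 8522 (median 7263). Lamp5 ran at 1.24 to 4.58 (median 2.71) and 152 to 206 (median 194), log2 −6.14 (SE 0.29, adjusted p 2.5e-09), and Nptx1, a pentraxin that gathers AMPA receptors, at 645 to 855 (median 786) and 283 to 373 (median 329), log2 1.22 (SE 0.0974, adjusted p 2.7e-07), neither with overlap. Nptx1 was also the most abundant of these per length in the cerebellum (147 CPM per kb), and Nrgn in the cerebrum (1048).

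Neuropeptide precursors are made at very high level by small groups of neurons, many of them hypothalamic. All 21 tested precursors (of 24) were higher in the cerebrum, with a median of −5.01, 21 of them without overlap, and sums of 195 to 296 (median 241) CPM and 923 to 1564 (median 1288). Hcrt, the orexin precursor of the lateral hypothalamus, ran at 0 to 0.0899 (median 0.0310) and 4.76 to 9.69 (median 7.67), log2 fold change −7.78 (SE 0.43, adjusted p 8.2e-09), and Cck, of cortical interneurons and pyramidal cells, at 28.7 to 51.5 (median 39.8) and 149 to 346 (median 284), log2 −2.80 (SE 0.21, adjusted p 1.6e-07). Sst, of cortical interneurons, had the highest level per length in the cerebrum (399.8 CPM per kb), where Penk led in the cerebellum (95.3). Sst, Vip, Trh and Cartpt each rest in size on vGlut2-line cerebellar replicate 4, without which they went from −5.01 to −5.87, from −4.91 to −6.72, from −6.69 to −9.80 and from −7.50 to −9.11. Some of these, such as Hcrt and Avp, have next to no cerebellar counts and pass the count filter by their cerebral level, so the filter favours that direction for them.

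Monoamine neurons and part of the cholinergic neurons sit in the midbrain and brainstem, and Hox genes mark the hindbrain and cord behind them. Of 10 tested transmitter genes (of 11) 8 were higher in the cerebrum and 2 not called (median −3.48). They summed to 7.23 to 30.2 (median 8.004) CPM and 74.2 to 98.4 (median 80.4). Th, which makes the precursor of dopamine, was the most abundant per length in both regions (3.07 and 9.83 CPM per kb) and ran at 5.998 to 9.47 (median 7.48) and 18.2 to 30.3 (median 22.6), log2 fold change −1.68 (SE 0.15, adjusted p 5.8e-07), without overlap. Outside vGlut2-line cerebellar replicate 4, the other members together were low beside Th in the cerebellum. Such members pass the count filter largely by their cerebral level, so the filter favours that direction for them. Chat, of cholinergic neurons, was at −5.46 and −7.75 without vGlut2-line cerebellar replicate 4. Tph2, which makes serotonin, and Slc6a2, which takes up noradrenaline, were not called at −2.36 and −1.52. Without that replicate both were called (−3.60 and −2.25), and Tph2 also without vGlut2-line cerebral replicate 1 (−2.83). All 14 tested Hox genes (of 39) were higher in the cerebrum without overlap (median −6.46; sums 0.195 to 1.20 (median 0.704) CPM and 24 to 58.7 (median 41.6)). With next to no cerebellar counts, these genes pass the count filter by their cerebral level, so a shared direction follows from the filter. Hoxa5 ran at 0 to 0.0664 (median 0.0225) and 2.04 to 4.71 (median 3.01), log2 −6.96 (SE 0.47, adjusted p 5.6e-08) and Hoxb3 at 0 to 0.101 (median 0.0225) and 2.34 to 5.10 (median 3.41), log2 −6.77 (SE 0.49, adjusted p 1e-07). Hoxb5 led the Hox genes per length in the cerebrum (3.84 CPM per kb) and Hoxa2 in the cerebellum (0.0334). The cerebellum arises from the part of the hindbrain that keeps Hox genes off, and cortex and striatum lack them too. Which tissue of the cerebral dissection these reads come from was not tested.

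GABA-A receptors are rings of subunits whose mix sets their place and kinetics. Of 16 tested subunits (of 19) 4 were higher in the cerebellum, 7 in the cerebrum and 5 not called (median 0.04). Their sums were 1125 to 2475 (median 2011) CPM in the cerebellum and 511 to 1701 (median 702) in the cerebrum. Beside Gabra6, the most abundant per length in the cerebellum (207 CPM per kb), those higher there include Gabrd, which led in the cerebrum (30.6), and Gabrb2. Gabrb2 ran at 41.7 to 169 (median 125) and 7.47 to 94.6 (median 12.7), log2 fold change 2.10 (adjusted p 0.0147; 3.03 without Gad2-line cerebral replicate 1). Toward the cerebrum Gabra5, the tonic subunit of the hippocampus, had the widest difference, at 0.488 to 5.89 (median 1.01) and 50.3 to 62.3 (median 55.2), log2 −5.21 (adjusted p 2.5e-06; −5.89 without vGlut2-line cerebellar replicate 4). Gabra2 was not called at 0.03, and with the mitochondrial share of each library as a further covariate its sign turned to −0.68 (adjusted p 0.0151).

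Glutamate receptor genes also go in both directions. Over all tested genes 28.9% were higher in the cerebellum and 29.2% in the cerebrum, and the ionotropic counts lie near those shares. Of 18 ionotropic subunits 6 were higher in the cerebellum, 6 in the cerebrum and 6 not called (median 0.00; sums 1959 to 2571 (median 2278) CPM and 1695 to 2335 (median 1786); Gria1 led per length in the cerebellum at 83.6 CPM per kb and Grin1 in the cerebrum at 61). Gria4, an AMPA subunit of Bergmann glia and granule cells, ran at 230.2 to 432 (median 363) and 21.1 to 87.1 (median 35.9), log2 fold change 3.03 (SE 0.33, adjusted p 5.4e-06). Among NMDA subunits Grin2c, of mature granule cells, ran at 122 to 241 (median 189.9) and 32.4 to 60.6 (median 50.9), log2 1.92 (SE 0.17, adjusted p 8.3e-07), and Grin2b, of the forebrain, at 5.75 to 25.9 (median 13.6) and 35.9 to 283 (median 51.4), log2 −2.57 (adjusted p 0.00155; −1.88 without Gad2-line cerebral replicate 1). These 3 had no overlap, and Grin2a was not called (−0.02, adjusted p 0.963). Of 7 tested metabotropic receptors (of 8) 2 were higher in the cerebellum and 4 in the cerebrum (median −0.86). They summed to 702 to 925 (median 831) CPM and 225 to 401 (median 267). Grm4, of parallel fibre endings, ran at 335 to 624.99 (median 500.4) and 41.7 to 70.9 (median 62.9), log2 3.06 (SE 0.17, adjusted p 7.6e-09) and led per length in the cerebellum (84.5 CPM per kb), while Grm2 led in the cerebrum (13) with a log2 fold change of −0.86 (adjusted p 0.000335).

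Cerebellins join the sending and receiving sides of parallel fibre synapses. Of 9 genes of the list of cerebellins and their partners 4 were higher in the cerebellum, 3 in the cerebrum and 2 not called (median 0.65; sums 4225 to 5680.2 (median 4590.2) CPM and 865 to 1177 (median 1044); Cbln3 led per length in the cerebellum at 460.1 CPM per kb and Nrxn2 in the cerebrum at 38.9). Cbln1 ran at 843 to 1348 (median 1171) and 36.9 to 76.7 (median 44.6), log2 fold change 4.57 (SE 0.18, adjusted p 7.8e-10), and Grid1, a glutamate receptor family gene, at 36.2 to 49.8 (median 38.9) and 71.7 to 85.3 (median 75.8), log2 −0.88 (SE 0.10, adjusted p 1.1e-05), neither with overlap. Cbln2 and Cbln4, at −3.53 and −3.72, were higher in the cerebrum and reached −5.23 and −4.48 without vGlut2-line cerebellar replicate 4. Nrxn2 was not called.

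Transmitter genes say which kinds of synapse each region builds. Of 15, 5 were higher in the cerebellum, 4 in the cerebrum and 6 not called (median 0.01). These counts lie near the shares over all tested genes (28.9% and 29.2%). They summed to 4706 to 5820.2 (median 5073) CPM and 4247 to 5612 (median 4676). Slc17a7, the vesicular glutamate transporter of granule and pyramidal cells, ran at 479 to 906 (median 777) and 1003 to 2034 (median 1587), log2 fold change −1.08 (SE 0.17, adjusted p 0.000155) and led per length in the cerebrum (289.9 CPM per kb), where Slc1a3 led in the cerebellum (168). Gad1, which makes GABA, ran at 454 to 625.22 (median 506) and 267 to 395 (median 325), log2 0.68 (SE 0.13, adjusted p 0.000505), and Slc1a6, the glutamate transporter of Purkinje cells, at 214 to 325 (median 264) and 11.1 to 23.5 (median 18.5), log2 3.88 (SE 0.17, adjusted p 1.6e-09). The regions did not overlap for these 3. The loci that carry Cre or the tag were not called: Gad2 at 64.3 to 165 (median 107) and 63.8 to 159.6 (median 89), log2 0.01 (adjusted p 0.964), Slc17a6 at 3.97 to 68 (median 11.6) and 21.4 to 131 (median 37.1), log2 −1.44 (adjusted p 0.0869) and Rpl22 at 83 to 114 (median 91.9) and 78 to 110.1 (median 95.8), log2 −0.02 (adjusted p 0.902), all with overlap. Slc17a6 was called at −2.16 (adjusted p 0.00165) without vGlut2-line cerebellar replicate 4.

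Release of transmitter rests on a shared fusion machine with paralogues that differ by synapse. Of 19 tested vesicle release genes (of 20) 5 were higher in the cerebellum, 12 in the cerebrum and 2 not called (median −0.57; sums 9583 to 11710.4 (median 10430.2) CPM and 9543 to 10623 (median 10182); Snap25 led per length in the cerebellum at 567 CPM per kb and Cplx1 in the cerebrum at 570.3). Stx1a, a syntaxin of the fusion machine, ran at 1.15 to 5.40 (median 1.57) and 168 to 322 (median 279), log2 fold change −6.89 (SE 0.38, adjusted p 8.4e-09). Syt5 ran at 2.82 to 14.5 (median 5.31) and 126 to 272 (median 221), log2 −4.97 (SE 0.36, adjusted p 1.1e-07), and the fast calcium sensor Syt2 at 631 to 798 (median 694) and 187 to 242 (median 207), log2 1.73 (SE 0.0880, adjusted p 4.2e-09). Unc13c, a priming factor of granule cells, was at 2.79 (adjusted p 0.000565; 3.49 without Gad2-line cerebral replicate 1). Stx1a, Syt5 and Syt2 had no overlap.

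Ion channels set the firing of each cell type, and granule and Purkinje cells fire fast. Of 18 potassium channels 6 were higher in the cerebellum, 10 in the cerebrum and 2 not called (median −0.80). They summed to 2610.04 to 3315 (median 2891) CPM and 1638 to 2093 (median 1749). Kcnq5, of the slow M current, ran at 1.05 to 4.92 (median 1.54) and 35 to 79.7 (median 41.6), log2 fold change −4.60 (SE 0.39, adjusted p 4.8e-07), without overlap. Of 9 sodium channel genes 3 were higher in the cerebellum and 4 in the cerebrum (median 0.33; sums 1863 to 2292 (median 1989) CPM and 1700.3 to 1954 (median 1782)), with the beta subunit gene Scn3b at 2.76 to 14.4 (median 4.55) and 79.5 to 135 (median 114), log2 −4.39 (SE 0.37, adjusted p 4e-07). Of 9 tested calcium channels (of 10) 3 were higher in the cerebellum and 2 in the cerebrum (median 0.02; sums 809.8 to 1139.7 (median 1002) CPM and 540.3 to 645 (median 585)). Of the T-type channels, those called went in opposite directions, Cacna1g at 293 to 441 (median 375) and 62.3 to 102 (median 92.3), log2 2.10 (SE 0.14, adjusted p 3.7e-08) and leading per length in the cerebellum (37.2 CPM per kb), Cacna1h at 3.99 to 6.86 (median 4.84) and 41 to 67.8 (median 59.2), log2 −3.46 (SE 0.18, adjusted p 4.7e-09), neither with overlap. Cacna1i, also T-type, led in the cerebrum (11.3) and was not called.

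Calcium buffers and the partners of calmodulin shape the signal that these channels start. Of 18 such genes 12 were higher in the cerebellum, 4 in the cerebrum and 2 not called (median 1.28). They summed to 7378 to 8561 (median 8052) CPM and 5940.3 to 8277 (median 7399). Camk2a, the kinase of forebrain excitatory synapses, ran at 119 to 175 (median 135) and 2418 to 3556 (median 3078), log2 fold change −4.46 (SE 0.13, adjusted p 1.2e-10), while Camk4, a nuclear calmodulin kinase of granule cells, ran at 102 to 164 (median 130.4) and 24.2 to 55.3 (median 34.4), log2 1.87 (SE 0.20, adjusted p 4.2e-06). Nrgn, which holds calmodulin at rest in spines, led per length in the cerebrum (1048 CPM per kb), while Pvalb led in the cerebellum (1000.4). Nrgn ran at 4.34 to 91 (median 6.45) and 917 to 1865 (median 1566), log2 −6.20 (adjusted p 2e-05; −7.36 without vGlut2-line cerebellar replicate 4). None of these overlapped, while Camk2b and the store channel gene Ryr3 were not called.

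Huntington's disease strikes the striatum first, and mismatch repair proteins lengthen the CAG repeat at different rates in different tissues. Control levels of huntingtin, its partners and DNA repair genes are given here for whole regions. Whether they bear on the disease was not tested. Htt was not called, at 106 to 139.5 (median 120.4) in the cerebellum and 105 to 132 (median 111) in the cerebrum (log2 fold change 0.09, SE 0.0939, adjusted p 0.443), with overlap. Of the 21 genes of the list 7 were higher in the cerebellum, 5 in the cerebrum and 9 not called (median 0.25), near the shares over all tested genes (28.9% and 29.2%). Their sums were 1249 to 1355 (median 1309) CPM in the cerebellum and 1363 to 1643 (median 1552) in the cerebrum. Hap1, which binds huntingtin on moving vesicles, ran at 71.6 to 128 (median 87.3) and 246 to 347 (median 288), log2 −1.65 (SE 0.14, adjusted p 4.5e-07) and led per length in the cerebrum (78.5 CPM per kb), while Igfbp5, a binding protein of insulin-like growth factor, led in the cerebellum (42.1). Among repair genes Pms1 ran at 3.39 to 7.55 (median 5.80) and 0.582 to 3.37 (median 0.661), log2 2.24 (adjusted p 0.00108; 2.87 without Gad2-line cerebral replicate 1), Fan1 at 7.25 to 9.18 (median 8.86) and 2.75 to 6.72 (median 4.73), log2 0.84 (SE 0.18, adjusted p 0.0015), and Msh3, which drives expansion in mice, at 10.9 to 21.4 (median 17) and 3.26 to 18.5 (median 5.04), log2 1.22 (SE 0.39, adjusted p 0.0177). Msh3 overlapped between regions and the other 2 did not. Repair genes were thus, where called, higher in the cerebellum, and Mlh3 and Lig1 were not called, with Mlh3 called without Gad2-line cerebral replicate 1 (0.41 to 0.59). Ccnd2, a D cyclin, ran at 4.19 to 7.30 (median 6.31) and 24.9 to 46.9 (median 36.7), log2 −2.60 (SE 0.18, adjusted p 7.7e-08), without overlap.

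Immediate early genes rise within minutes of neuronal activity and of handling before death. Of 13, 9 were higher in the cerebrum, 1 (Ier2) in the cerebellum and 3 not called (median −2.03; sums 111 to 371 (median 143) CPM and 348 to 957 (median 525)). Egr3 ran at 0.310 to 1.77 (median 0.610) and 69.3 to 106 (median 88.9), log2 fold change −6.94 (SE 0.42, adjusted p 2.2e-08) and Egr1, the most abundant per length in the cerebrum (34.6 CPM per kb), at 34.5 to 64.4 (median 45.9) and 114 to 241 (median 144), log2 −1.75 (SE 0.17, adjusted p 2.1e-06), neither with overlap. Fos was not called, at 3.29 to 69.5 (median 7.57) and 7.06 to 42 (median 11.2), log2 −0.27 (adjusted p 0.713). Ier2 led per length in the cerebellum (11.2 CPM per kb) and had a log2 fold change of 1.12 (adjusted p 0.00879), with overlap.

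Mitochondrially encoded RNA made up 3.61 to 9.21% of counts in the cerebellum (median 7.15%) and 2.05 to 7.52% in the cerebrum (median 4.015%). Of 13 such genes 7 were called higher in the cerebellum and 6 not called (median 0.90; sums 30575 to 89825 (median 65295) CPM and 14878 to 68588 (median 33063); mt-Co1 led per length in the cerebellum at 14358 CPM per kb and mt-Atp6 in the cerebrum at 7260.4). mt-Cytb, of respiratory complex III, ran at 4629 to 11099 (median 8082) and 2224 to 8488 (median 2550.3), log2 fold change 1.20 (SE 0.37, adjusted p 0.014) and was the member called in each of the 13 fits that leave out 1 library. Every member overlapped between regions, so this difference is weak beside the spread of libraries. In the 13 HD libraries the shares were 2.54 to 7.8% (median 5.29%) and 2.36 to 8.94% (median 5.26%).

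Whether the region difference depends on the mouse line was tested as an interaction. The quasi-likelihood F test of edgeR, adjusted by Benjamini-Hochberg, called 0 of 14901 genes (0%), with 1132 at an unadjusted p under 0.05. DESeq2 also called 0, with 1515 at an unadjusted p under 0.05. With 3 or 4 libraries per line and region, this test recovered 60% of simulated 4-fold differences and 5% of 2-fold ones, so only large differences by line could have been seen.

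Mice of the series with an expanded huntingtin allele give a second view of the same contrast, in 13 HD total RNA libraries of the same lines and regions. In them 2753 genes were higher in the cerebellum (18.6%) and 3034 in the cerebrum (20.4%) by the same test. Of the control calls tested there, 1853 of 4274 (43.4%) were called higher in the cerebellum again and 2388 of 4303 (55.5%) higher in the cerebrum, while 823 and 654 had the other sign. The difference between genotypes, tested as an interaction in all 26 libraries, was called for 33 of 14885 genes (0.222%), and 19 of the 33 were called in all 31 settings run. At an unadjusted p under 0.05 there were 5891 genes. The count of 33 is unsteady: it was 1630 without Gad2-line control cerebellar replicate 3, 6044 without Gad2-line control cerebral replicate 1, 5316 without Gad2-line HD cerebellar replicate 3 and 4222 without Gad2-line HD cerebral replicate 3. DESeq2 called 2023, and limma voom with mouse as a block, which allows for libraries of the same mouse, 6521.

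Ccnd1, a D cyclin, led the 33. It ran at 27.4 to 31.4 CPM (median 28.7) in control cerebellum and 29.7 to 45.2 (median 37.1) in control cerebrum, and at 73.1 to 109 (median 91.7) and 30.0 to 40.6 (median 38.5) in HD, so the log2 fold change went from −0.36 in controls to 1.32 in HD, a difference of 1.64 (SE 0.14, adjusted p 3.2e-07). The control call of Ccnd1 was lost without vGlut2-line cerebral replicate 1 (−0.23). Igfbp5 ran at 199 to 309.9 (median 256) and 132 to 194 (median 149) in controls and 86.4 to 112 (median 103) and 128 to 163 (median 157) in HD, a difference of −1.24 (adjusted p 0.000284). In Ccnd1 and Igfbp5 the sign of the region difference turned with genotype. Control and HD levels were scaled in separate TMM runs, so their medians compare across genotype as description alone. By those medians the cerebellum moved more than the cerebrum, and which region moved was not tested. The differences between genotypes come from the fit of control and HD libraries together. Adora2a kept its sign, from −5.25 to −3.52, with cerebral levels of 46.8 to 114 (median 83.3) in controls and 25.9 to 59.9 (median 40.3) in HD (difference 1.67, adjusted p 0.00291).

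Neurod1 and its relatives bind the E-box, a hexamer written CANNTG, and the letters CAGATG and CAGCTG are forms of it that such factors use. As a description of sequence, RefSeq promoter windows of 300 bases (GRCm38.p6) were searched for both words on either strand; CAGATG reads CATCTG on the other strand and CAGCTG is its own reverse complement. Of the 16 granule cell genes 12 had a window, and 3 held CAGATG and 2 CAGCTG. Of the 20 telencephalic factors 15 had a window, with 3 and 2. Over all 27025 genes with a window the shares were 19.2% and 18.3%. These counts are given without a test. The windows that hold CAGATG are printed with the motif in capitals, and binding was not measured. Those of granule cell genes are Etv1 (chr12:38783461-38783760, forward strand), Nfia (chr4:97581693-97581992, forward strand) and Tiam1 (chr16:89818303-89818602, reverse strand).

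Etv1: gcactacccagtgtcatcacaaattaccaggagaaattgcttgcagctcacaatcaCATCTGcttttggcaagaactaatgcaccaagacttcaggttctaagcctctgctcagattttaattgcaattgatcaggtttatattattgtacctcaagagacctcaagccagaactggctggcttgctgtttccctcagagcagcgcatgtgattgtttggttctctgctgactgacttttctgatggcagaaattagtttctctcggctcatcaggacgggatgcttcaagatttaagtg

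Nfia: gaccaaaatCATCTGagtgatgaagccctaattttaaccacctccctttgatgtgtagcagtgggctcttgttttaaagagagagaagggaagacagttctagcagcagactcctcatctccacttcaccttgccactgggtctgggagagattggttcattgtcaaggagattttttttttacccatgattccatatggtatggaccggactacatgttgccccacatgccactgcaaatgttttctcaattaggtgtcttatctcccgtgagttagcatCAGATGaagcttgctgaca

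Tiam1: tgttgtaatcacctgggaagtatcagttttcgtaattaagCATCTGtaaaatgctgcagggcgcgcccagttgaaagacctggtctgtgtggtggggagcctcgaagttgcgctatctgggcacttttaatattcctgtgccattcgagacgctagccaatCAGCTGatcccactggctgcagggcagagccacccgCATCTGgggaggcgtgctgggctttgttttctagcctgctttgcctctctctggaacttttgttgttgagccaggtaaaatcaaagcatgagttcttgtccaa

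Those of telencephalic factors are Lhx2 (chr2:38351058-38351357, forward strand), Neurod2 (chr11:98329596-98329895, reverse strand) and Mef2c (chr13:83573357-83573656, forward strand). Etv1, Nfia and Tiam1 were higher in the cerebellum (3.09, 1.87 and 1.86), and Neurod2 too (1.24). Lhx2 and Mef2c were higher in the cerebrum (−6.62 and −2.73, with Lhx2 at −7.92 without vGlut2-line cerebellar replicate 4). The same word thus lies in annotated windows of genes higher on either side. Whether these windows are the promoters in use was not tested.

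Lhx2: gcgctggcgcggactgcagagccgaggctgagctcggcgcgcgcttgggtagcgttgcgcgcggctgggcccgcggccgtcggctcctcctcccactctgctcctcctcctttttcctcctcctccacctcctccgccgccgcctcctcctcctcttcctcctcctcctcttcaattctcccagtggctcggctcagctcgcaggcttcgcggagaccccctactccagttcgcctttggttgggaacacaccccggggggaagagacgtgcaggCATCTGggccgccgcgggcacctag

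Neurod2: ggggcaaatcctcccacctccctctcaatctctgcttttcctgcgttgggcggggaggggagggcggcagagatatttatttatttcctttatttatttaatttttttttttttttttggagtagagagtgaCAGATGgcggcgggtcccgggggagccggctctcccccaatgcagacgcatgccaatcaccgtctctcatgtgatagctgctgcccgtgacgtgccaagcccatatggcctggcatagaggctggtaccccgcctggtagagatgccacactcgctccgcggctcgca

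Mef2c: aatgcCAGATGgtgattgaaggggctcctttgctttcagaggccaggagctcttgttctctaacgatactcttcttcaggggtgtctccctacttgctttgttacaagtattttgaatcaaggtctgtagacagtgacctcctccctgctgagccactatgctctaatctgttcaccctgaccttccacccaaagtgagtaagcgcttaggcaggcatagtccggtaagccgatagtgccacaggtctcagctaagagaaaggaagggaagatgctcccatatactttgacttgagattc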

How the data were processed

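The deposited table holds estimated counts per gene that the authors made from stranded poly(A) reads, with STAR, Salmon and GRCm38.p6 named in the labels without versions. Counts were rounded and 92 spike-ins left out. Of 55401 genes, 55141 matched GENCODE M21 by Ensembl ID and 21897 are protein-coding. Those whose mean count was over 10 were tested with edgeR 4.0.16 (quasi-likelihood F test, TMM, region with Cre line as covariate, and a test against 2-fold in the same fit). P-values are two-sided, Benjamini-Hochberg adjusted and called at 0.05. The work used limma 3.58.1 and DESeq2 1.42.0 under R 4.3.3, and pandas 2.3.3, matplotlib 3.10.9 and numpy 2.4.6 under Python 3.11.15. Interaction tests asked whether the region difference depends on Cre line (13 libraries) or genotype (26 libraries).

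Depth was 28504336 to 49987799 counts per library, and replicates varied far beyond counting error (chi-square per degree of freedom at least 39.9 over 15 pairs). Spike-ins took 0.201 to 1.2% of counts in the cerebellum and 0.163 to 1.42% in the cerebrum.

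Libraries of the same mouse pair by the mouse names in the labels (4 pairs). Their deviations from the mean of line and region correlate across genes at 0.48, 0.18, 0.55 and 0.40, and the within-mouse consensus correlation was 0.471. The first of these is of the Gad2 line, where pairs of different mice ran from −0.85 to 0.86. In the vGlut2 line pairs of different mice ran from −0.58 to 0.39. All 4 same-mouse values were positive, and the main fit does not use this pairing. On the 13 libraries limma voom called 10552 genes with mouse as a block and 9068 without it, where edgeR called 8665. Pairs by replicate number ran from −0.59 to 0.48 and were used as an alternative alone. Genes are not independent replicates.

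In simulated data with 100 changed genes per fold among 14901, edgeR recovered 60% of 2-fold and 96% of 4-fold changes with 3.7% of calls on unchanged genes, limma voom 60% and 96% (3.7%), and DESeq2 75% and 99% (19.1%). The test beyond 2-fold recovered 0% and 81% (0%) and the test by Cre line 5% and 60% (4.41%). A 2-fold change lies at the threshold of the test beyond 2-fold, so its recovery near 0% follows from the design. The test by genotype, simulated among 14885 genes, recovered 33% and 79% (3.45%). Few genes were changed in these simulations and libraries were drawn independently. In the data 8665 genes were called by region and libraries of the same mouse correlate, so these rates hold for the simulated setting alone.

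Members and lists were chosen with earlier results of these data known. The 35 lists hold 432 genes. The rule for named genes takes the 12 called genes of largest fold per direction among those without overlap and with a mean of at least 10 CPM in the higher region. In each list it names the 2 called members of largest fold per direction, the most abundant per length, members not called and others whose role is given. Some of these genes are not reported here. It also names Htt, Gad2, Slc17a6 and Rpl22. Folds against 0 counts use a floor of 3 counts over the group, and counting intervals are exact at 95%. The promoter windows printed were chosen after the search, since the windows of the leading genes first looked at did not hold the words. Genes of the genotype interaction were named after their values were seen.

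Alternatives were DESeq2, limma voom, other size factors, other filters, all gene types, no line covariate, an Xist covariate, each line alone, added cerebral libraries of the PV and SST lines, mouse or number as a block, and each library left out. A mitochondrial share covariate and leaving out the 3 libraries that stand apart were chosen after seeing the data.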

Additional observations from a re-analysis of the deposited data

Results flagged for a closer look

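In 76 groups of 6 or 7 libraries (summed levels of lists and library measures), the highest or lowest library was compared with its nearest neighbour by Dixon's test, and 9 groups had a library far from the others. Chance flags about 1 in 20 groups. The cause was not tested in any of them.

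Choroid plexus genes summed to 4916 CPM in Gad2-line cerebellar replicate 1, far above the other cerebellar libraries (median 1825). Blood genes summed to 1381 CPM in vGlut2-line cerebral replicate 2 (cerebral median 401), and the near-identical globin genes make its split by gene uncertain. The highest cerebellar sum of blood genes, 1572 CPM, was in vGlut2-line cerebellar replicate 3, which is the same mouse. Pituitary and pineal genes reached 0.809 CPM in Gad2-line cerebellar replicate 3 and 2.92 in Gad2-line cerebral replicate 3, the same mouse, against medians of 0.243 and 0.532.

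The vGlut2-line cerebellar replicate 4 was far above the other cerebellar libraries in brainstem and midbrain transmitter genes (30.2 CPM, median 8.004) and in diencephalic transcription factors (110.1 CPM, median 22.6). Thalamic neuron genes summed to 432 CPM in Gad2-line cerebral replicate 1 (cerebral median 347). Immediate early genes summed to 371 CPM in Gad2-line cerebellar replicate 1 (median 143) and to 957 in Gad2-line cerebral replicate 2 (median 525).

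The region difference itself differed between control and HD mice for 33 genes, by the interaction test of edgeR in 26 libraries, with 21 shifted toward the cerebellum in HD and 12 toward the cerebrum.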

How the results depend on the processing

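For the 401 named genes tested, 12431 values under alternatives were computed: 11878 kept direction and side of the threshold (95.6%), 307 lost the call, 243 gained it and 3 turned sign, none of these 3 called with all 13 libraries. Foxp2 went from −0.08 to 0.61 with mouse as a block, Gabra2 from 0.03 to −0.68 and mt-Nd6 from 0.19 to −0.88 with the mitochondrial covariate.

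The count of genes called (8665) ran from 7520 to 10366 when each library was left out (cerebellum 3592 to 5348, cerebrum 3561 to 5018). Gad2-line mice alone (6 libraries) gave 3121 (1225 and 1896). Beyond 2-fold (2158), leaving out each library gave 1965 to 3078 (706 to 1617 in the cerebellum, 1197 to 1461 in the cerebrum), and Gad2-line mice alone 1363, of which 452 in the cerebellum. The cerebellar count of 809 was 1625 with the 3 libraries that stand apart left out, 1849 with mouse as a block (8 libraries) and 1559 in vGlut2-line mice alone. With number as a block 7246 genes were called, 2017 of them beyond 2-fold. The 33 genes by genotype became 2023 with DESeq2 and 6521 with limma voom and mouse as a block, and 22 to 6044 when each library was left out. By Cre line the count was 0 throughout. The cause of these shifts was not tested. The fits of vGlut2-line mice and of the mouse block also lack Gad2-line cerebral replicate 1. DESeq2 gave no adjusted p, and so no call, for some named genes, among them Cbln3, Fat2, Crtam, Pcp2, Cbln2, Gabra5, Lhx2, Msh3, Ppp1r17, Six3, Trh and Vip.

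Limits: cell number and RNA per cell cannot be told apart, the regions are mixtures whose borders the dissection sets, the reference gene models and estimated counts are taken as deposited, and 9 mice of 1 background and age were sampled. The tests by line and genotype recovered mostly 4-fold differences.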
